A study of Mus musculus with 24 samples.

Results

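Blood monocytes of the Ly6Clo and the Ly6Chi subset were compared in Notch2-mutant mice treated with imiquimod (IMQ), to ask how the subsets differed when both carried the same deletion and both came from inflamed animals. The 8 libraries were the 4 labelled Ly6Clo and the 4 labelled Ly6Chi of this genotype and treatment, out of 24 libraries in the series. Genes were kept when at least 1 of the 24 libraries reached a normalised read count of 50, which left 11230 of 53715 genes. All mice were on a C57BL/6 background and 8 to 10 weeks old. The mutant, N2ΔMy, carried loxP-flanked Notch2, Cre recombinase expressed from the Lyz2 locus and a GFP allele at the Cx3cr1 locus, so both subsets had the deletion and the reporter. All 8 libraries came from mice that received 50 mg per day of a cream with 5% imiquimod on depilated skin for 4 to 5 days and were killed on day 5. Cells were sorted from blood as lineage-negative CD11b+ GFP+ CD115+ cells, as Ly6Chi CD43- MHC-II- or as Ly6Clo MHC-II- cells. Control (wt) Ly6Clo and Ly6Chi monocytes of the same treatment, 4 libraries each, are given only beside the mutant values. These wt cells were sorted by the same gates, GFP included, so both genotypes carried the reporter. The Cre and loxP status of the wt mice is not reported here. Lyz2-driven Cre acts in myeloid cells at large and leaves part of Notch2 in place, which limits the mutant as a model of complete loss.

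Ly6Chi monocytes leave the bone marrow through the chemokine receptor Ccr2 and enter inflamed tissue, where they can become macrophages or dendritic cells. Ly6Clo monocytes arise from them in the blood, depend on the nuclear receptor Nr4a1, live longer and patrol the endothelium. Notch receptors are cleaved after ligand binding, and the freed intracellular domain acts with Rbpj to switch on genes such as Hes1 and Nrarp. Imiquimod is an agonist of TLR7, an endosomal receptor for single-stranded RNA that signals through Myd88.

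The deposited values are whole-number normalised read counts, with 11170852 to 17091919 reads per library inferred from their spacing and 6.21% to 8.64% of the summed values from mitochondrially encoded genes. Replicates 1 and 2 belonged to one library series and replicates 3 and 4 to another. Log2 fold changes are differences of mean log2(value + 1), Ly6Clo minus Ly6Chi, with their standard error (SE), and folds are ratios of mean normalised read counts. A gene was called when limma's adjusted p was at most 0.05 and its absolute log2 fold change at least 0.6.

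Notch2 itself (chr3:98013527-98150361, GRCm38.p6) was read in every library. Normalised read counts were 10987, 9368, 11137 and 11518 in mutant Ly6Clo and 8311, 7240, 7611 and 7303 in mutant Ly6Chi cells. They were 20005, 16624, 16037 and 18399 in wt Ly6Clo and 14982, 14001, 13993 and 12656 in wt Ly6Chi cells. All 8 mutant libraries lay below these 8 wt libraries, and none was near 0. Within the mutant, Notch2 was 1.41-fold higher in Ly6Clo cells without overlap, a log2 fold change of 0.50 ± 0.10 (SE) with an adjusted p of 0.00408 that is below the fold limit for a call. The sort antigens, which are no findings, followed the gates: Ly6c2 had 51, 46, 382 and 58 in Ly6Clo against 2509, 2370, 9161 and 6302 in Ly6Chi cells, and Spn (CD43) was 3.58-fold higher in Ly6Clo cells.

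Hes1 and Nrarp, known from the Notch response, were higher in mutant Ly6Clo cells. Hes1, a repressor and a direct Notch target, had normalised read counts of 252, 368, 296 and 324 in Ly6Clo and 44, 44, 110 and 82 in Ly6Chi cells. The groups did not overlap, and Hes1 was 4.43-fold higher in Ly6Clo cells (log2 fold change 2.23 ± 0.29, adjusted p = 0.000266). Nrarp, a feedback inhibitor of Notch signalling, had 37, 28, 52 and 80 against 0, 4, 5 and 5, a log2 fold change of 3.67 ± 0.68 that was 2.08 with a pseudocount of 10 and 4.66 with one of 0.1. In wt cells the log2 fold changes were 2.04 for Hes1 and 4.58 for Nrarp. The difference between the genotypes' fold changes (mutant minus wt) was 0.19 ± 0.35 for Hes1 and -0.91 ± 0.73 for Nrarp and was called for neither (adjusted p = 0.999 and 0.96). The levels in Ly6Clo cells did not overlap between genotypes, with Hes1 at 592, 672, 744 and 788 and Nrarp at 151, 132, 128 and 151 in wt Ly6Clo cells, above every mutant Ly6Clo library, and this difference in level was not tested. The ligand Jag1 was 7.14-fold higher in mutant Ly6Clo cells. Notch1, the related receptor, ran the other way, with 1505, 1398, 953 and 849 in Ly6Clo against 3763, 3244, 2930 and 2379 in Ly6Chi cells (log2 fold change -1.41 ± 0.20). Of 28 Notch pathway genes tested, 6 were called higher in Ly6Clo cells (Hes1, Nrarp, Jag1, Pofut1, Lfng and Maml2), 2 lower (Notch1 and Dtx3) and 20 were not called, with a median log2 fold change of -0.06, beside 9.01% of all genes called higher and 8.38% lower. With the replicate number as a block 4 were called lower. The median over all genes tested was -0.0051.

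Across all genes tested, 1012 were called higher in mutant Ly6Clo cells (9.01% of 11230) and 941 lower (8.38%). These shares are the background for the counts of every gene group in the mutant subsets. Values of the groups did not overlap for 3119 genes, 27.8% of those tested, and for 1790 of the 1953 genes called. For every one of the 1953 called genes the first and the second library series gave the same sign, and a fit of the first series alone called 1861 genes and one of the second 2481. A log2 fold change of at least 3 was reached by 139 genes higher and 60 lower, and one of at least 5 by 27 higher and 7 lower. The plot of log2 fold change against level shows these genes over the whole range of expression.

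**Figure D1:**
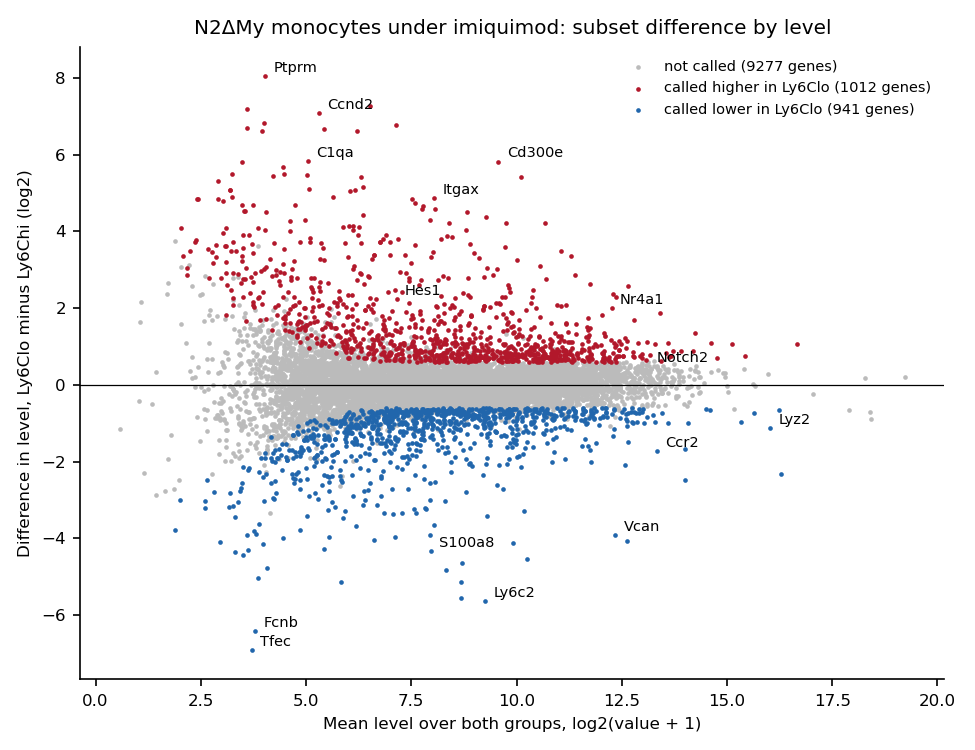
Log2 fold change (Ly6Clo minus Ly6Chi, vertical axis) against mean log2(value + 1) over both groups (horizontal axis) for the 11230 genes tested in N2ΔMy mice under IMQ; each point is a gene, red if called higher in Ly6Clo cells (1012), blue if called lower (941) and grey if not called. Cd300e (log2 fold change 5.82) and Itgax (4.87) lie far above 0, Vcan (-3.92) and S100a8 (-4.33) far below, and Notch2 (0.50) close to it.

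Genes at the top of the rise were almost silent in mutant Ly6Chi cells. Ptprm, a receptor tyrosine phosphatase of cell contacts, had 253, 276, 290 and 243 in Ly6Clo cells and is listed at 0 in all 4 Ly6Chi libraries. Sox5, a transcription factor, had 190, 138, 125 and 131 and is also listed at 0 in all 4 Ly6Chi libraries, so that no fold is given for either gene. Jade2, a chromatin-associated protein, had 1428, 994, 1110 and 1060 against 2, 3, 20 and 11, a log2 fold change of 7.26 ± 0.52 (6.02 with a pseudocount of 10). Ccnd2, the D-type cyclin, had 411, 505, 427 and 498 in Ly6Clo cells and at most 8 in Ly6Chi cells. Also among the largest rises were Fcrl5, an Fc receptor-like protein (log2 fold change 6.78, and 5.92 with a pseudocount of 10), and Cd72, an inhibitory lectin (6.60 and 5.40). Adrb1, the beta-1 adrenergic receptor, had 500, 255, 449 and 601 against 1, 0, 12 and 12, and Art3, of the ADP-ribosyltransferase family, had 159, 178, 105 and 176 against 1, 2, 0 and 0. In each of these 4 genes every Ly6Clo library exceeded every Ly6Chi library, and the fitted fold changes of Adrb1 and Art3, and their order among the rises, rest on the pseudocount. Itga9, an integrin chain, had 106, 145, 102 and 142 against 0, 1, 0 and 0.

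The largest falls included genes known from granules and from classical monocytes. Tfec, a transcription factor of the MiT family, had 157, 147, 120 and 149 in mutant Ly6Chi cells and 0, 1, 0 and 0 in Ly6Clo cells. Fcnb, a secreted ficolin, had 111, 137, 125 and 138 against 0, 4, 0 and 0. For both genes the fitted log2 fold change rests on the pseudocount, and no fold is given. Mmp8, the neutrophil collagenase, was 44.9-fold higher in Ly6Chi cells (2420, 2609, 2936 and 3253 against 86, 79, 35 and 50). Rab44, a large Rab GTPase, was 37.1-fold higher and Cd177, a surface protein known from neutrophils, 24.2-fold higher in Ly6Chi cells. Cd93, a C1q receptor-like protein, fell by 4.13 on the log2 scale and Clec5a, a lectin that signals through DAP12, by 4.03.

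Marker genes of the subsets went with the labels, where 9.01% of all genes were called higher and 8.38% lower. Of 21 patrolling monocyte markers tested, 19 were called higher in mutant Ly6Clo cells, none lower, and 2 were not called (Cebpb and Cx3cr1), with a median log2 fold change of 2.57. Without Spn and Cx3cr1, on whose products the cells were gated, 18 of 19 were called higher, with a median of 2.63. Nr4a1 had 9659, 7536, 10007 and 12542 in Ly6Clo against 1752, 1675, 3868 and 3220 in Ly6Chi cells, a 3.78-fold difference without overlap (log2 fold change 1.99 ± 0.26, adjusted p = 0.000271). Cd300e, an activating receptor, had 5201, 5914, 5504 and 6247 against 49, 81, 139 and 181, a 50.8-fold difference (log2 fold change 5.82 ± 0.32, adjusted p = 7.48e-07). Itgax (CD11c) had 982, 1081, 1915 and 2008 against 46, 28, 82 and 48. Both genes separated the subsets completely. Ace, the angiotensin-converting enzyme, was 5.71-fold higher, Pou2f2, a transcription factor, 3.22-fold higher and Fcgr4, an activating IgG receptor, 11.3-fold higher in Ly6Clo cells. Cx3cr1, one copy of which is replaced by GFP, had 3978, 3682, 3801 and 3682 against 1990, 1961, 3661 and 3091, and missed the call with an adjusted p of 0.0501 and a log2 fold change of 0.55.

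Of 19 classical monocyte markers tested, 17 were called lower in mutant Ly6Clo cells, none higher, and S100a4 and Ifitm6 were not called, with a median log2 fold change of -2.09. Over all genes 8.38% were called lower and 9.01% higher. Without Ly6c2, the gene of the sort antigen, 16 of 18 were called lower. With the replicate block S100a4 was called lower (adjusted p = 0.00109). Ccr2 had 6279, 6281, 5879 and 4393 in Ly6Clo and 17456, 18536, 18924 and 20176 in Ly6Chi cells, a 3.29-fold difference (log2 fold change -1.73 ± 0.13, adjusted p = 3.88e-06). Vcan, the matrix proteoglycan versican, had 1785, 1886, 743 and 1282 against 22178, 24987, 13705 and 22333. Neither gene's groups overlapped, and Vcan fell by 3.92 on the log2 scale, while every mutant Ly6Clo library still had at least 4393 normalised reads of Ccr2. F13a1, a clotting factor subunit, was 16.5-fold higher in Ly6Chi cells. Fn1 (fibronectin) was 4.78-fold higher, and Chil3 4.25-fold higher, in Ly6Chi cells. Lyz2, from whose locus the Cre was expressed, was 2.22-fold higher in Ly6Chi cells, with a log2 fold change of -0.66 in the first library series and -1.59 in the second. Since these are sorted populations read in bulk, fewer cells of a type and less RNA per cell cannot be told apart in any of these values.

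**Figure D2:**
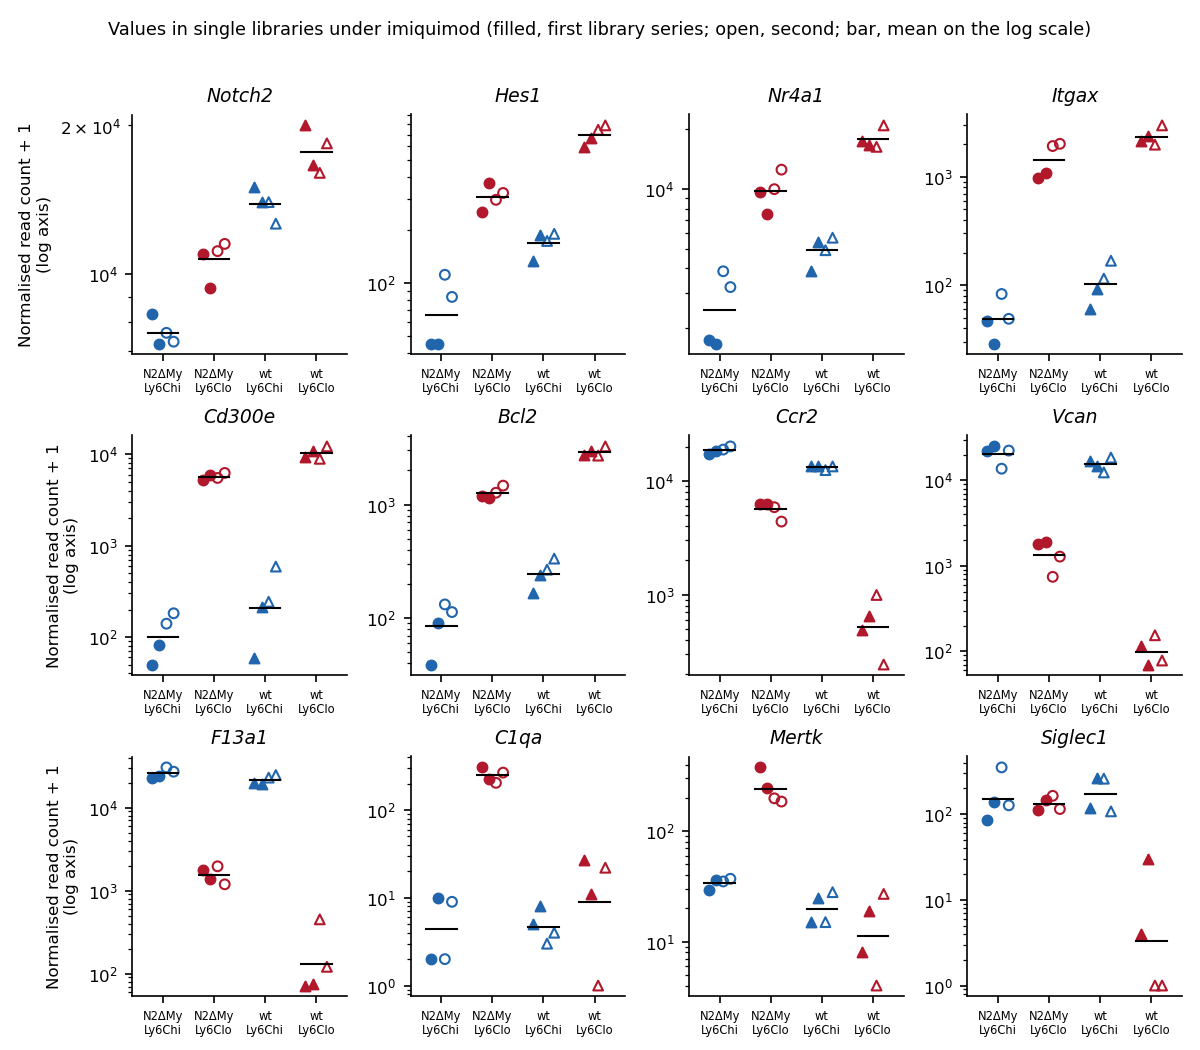
Normalised read count + 1 (vertical log axis) of 12 genes in each library of N2ΔMy (circles) and wt (triangles) mice under IMQ, with Ly6Chi in blue and Ly6Clo in red; filled symbols are replicates 1 and 2, open symbols replicates 3 and 4, and the black line is the mean on the log scale. Cd300e and Itgax split by subset in both genotypes, and mutant Ly6Clo values of Ccr2 (4393 to 6281) stand above those of wt Ly6Clo cells (241 to 991).

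Of 44 monocyte and macrophage transcription factors tested, 10 were called higher, 5 lower and 29 were not called, with a median log2 fold change of 0.29, beside 9.01% of all genes called higher and 8.38% lower. The largest rise was in Pparg, a lipid-sensing nuclear receptor, with 1645, 1600, 1597 and 1918 in Ly6Clo against 80, 130, 156 and 183 in Ly6Chi cells (log2 fold change 3.67 ± 0.22). Tcf7l2, the effector of Wnt signalling, was 10.7-fold higher and Nr1h3, the oxysterol receptor LXRα, 6.75-fold higher in Ly6Clo cells. Klf4, needed for monocyte development, was 2.04-fold higher. On the lower side were Irf8, a factor of monocyte commitment (1.84-fold higher in Ly6Chi cells), Runx3, Cebpd, Cebpe and Id1, of which Cebpe and Id1 had an adjusted p of 0.0466 and 0.046. The count of 5 lower went down to between 2 and 3 without Ly6Chi replicate 1, 2, 3 or 4 or Ly6Clo replicate 1, 3 or 4. Zeb2, the highest factor that was not called, had 15112 to 18934 in Ly6Clo and 16298 to 18615 in Ly6Chi cells.

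Of 30 macrophage markers listed, 24 passed the low value filter and were tested. In mutant Ly6Clo cells 12 were called higher, 4 lower and 8 not, at a median log2 fold change of 0.81. Over all genes 9.01% were called higher and 8.38% lower. In wt cells the same list gave 5 higher and 9 lower, where 11.9% of all genes were called higher and 12.7% lower. The difference between genotypes was called higher in the mutant for 8 and lower for none. Over all genes these shares were 0.971% and 0.0623%. The study had named Fcgr1, Mertk, C1qa, Clec7a, Maf, Cd36, Cd14 and Adgre1 from these same libraries as higher in mutant Ly6Clo cells, so the list was not chosen independently of these data. The complement subunits C1qa, C1qb and C1qc, neighbours on chromosome 4 that together form the recognition protein of the classical pathway, were among the largest rises. C1qa (chr4:136895917-136898803) had 305, 225, 203 and 266 in mutant Ly6Clo and 1, 9, 1 and 8 in mutant Ly6Chi cells (log2 fold change 5.83 ± 0.56, adjusted p = 2.69e-05, and 4.17 with a pseudocount of 10). C1qb had 971, 742, 1187 and 1193 against 25, 17, 79 and 51, and C1qc had 361, 338, 428 and 568 against 7, 16, 8 and 18. No library of one subset reached the range of the other for any of the 3 genes. Cd36, a scavenger receptor, was 20.2-fold higher in Ly6Clo cells. Cd5l, a secreted macrophage protein, had 149, 120, 197 and 229 against 0, 0, 4 and 0. Spic, a factor of red pulp macrophages, was 26.0-fold higher, and Adgre1 (F4/80) 2.19-fold higher. The 4 markers called lower were Gpnmb, Trem2, Clec7a and Axl, with Trem2, a lipid-sensing receptor, 8.38-fold and Clec7a, the beta-glucan receptor dectin-1, 3.84-fold higher in Ly6Chi cells. Those not called included Cd14, Fcgr1, Mrc1, Cd163, Siglec1, Cd68 and Apoe, of which Apoe, the highest, had 6583 to 13409 in Ly6Clo and 5645 to 12730 in Ly6Chi cells.

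Outside C1q, the complement list also held the anaphylatoxin receptor C3ar1, with 3628, 3742, 2132 and 2535 in Ly6Clo against 192, 213, 273 and 309 in Ly6Chi cells (log2 fold change 3.59 ± 0.21). C3, the central complement protein, went down, with 8946, 7909, 7091 and 4690 against 36027, 34101, 46827 and 39115. C1ra, a protease of the classical pathway, was also lower in Ly6Clo cells, with 3, 0, 0 and 2 against 38, 21, 43 and 26. In all, 6 of 16 complement genes tested were called higher, 3 lower and 7 not, with a median of 0.30. Over all genes 9.01% were called higher and 8.38% lower.

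Among genes for the uptake of apoptotic cells, 8 of 22 tested were called higher in Ly6Clo cells, 5 lower and 9 not, with a median of 0.26. The shares over all genes were 9.01% higher and 8.38% lower. Mertk, a receptor tyrosine kinase that binds dying cells through bridging ligands, had 376, 245, 197 and 184 in Ly6Clo and 28, 35, 34 and 36 in Ly6Chi cells, a 7.53-fold difference without overlap (log2 fold change 2.82 ± 0.25). Itgb3, the beta-3 integrin chain, was 2.88-fold higher in Ly6Clo cells. The scavenger receptor Msr1, by contrast, was 3.62-fold higher in Ly6Chi cells, and the bridging protein Mfge8 2.41-fold higher. Lrp1, the highest member that was not called, had 41918 to 62876 in Ly6Clo and 43521 to 60896 in Ly6Chi cells.

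Of 17 chemokine and lipid chemoattractant receptors tested, 5 were called higher in Ly6Clo cells and 3 lower, with 9 not called and a median of 0.08, where the shares over all genes were 9.01% and 8.38%. S1pr5, a sphingosine 1-phosphate receptor, was 4.87-fold higher and S1pr1 3.71-fold higher in Ly6Clo cells. Ccr1 had 77, 70, 55 and 46 in Ly6Clo against 613, 715, 495 and 694 in Ly6Chi cells. Ptafr, the receptor of platelet-activating factor, was also lower, but its groups overlapped (521 to 995 against 952 to 1424; adjusted p = 0.0264), and it was no longer called without Ly6Chi replicate 1 or 3 or Ly6Clo replicate 2 or 4. Of 25 integrins and adhesion molecules, 11 were called higher, 4 lower and 10 not, with a median of 0.30. Pecam1 (CD31), an adhesion molecule of leukocytes and endothelium, had 7733, 8805, 6024 and 6655 against 105, 184, 238 and 169, a 42.0-fold difference. Itga1, a collagen-binding chain, went the other way, with 53, 46, 91 and 66 in Ly6Clo against 1021, 1012, 892 and 886 in Ly6Chi cells. Tln1 (talin-1), which links integrins to actin, had 45041 to 57813 and 36440 to 38757 and was not called at a log2 fold change of 0.40.

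Interferon-stimulated genes were lower or not called in mutant Ly6Clo cells. Of 38 type I interferon-stimulated genes tested, 14 were called lower, none higher and 24 not, with a median log2 fold change of -0.71, against 8.38% of all genes called lower and 9.01% higher. With the replicate number as a block, 22 were called lower and again none higher. Promoters of 2 members that were called lower and of 1 that was not are printed to set the motif beside the values (RefSeq starts on GRCm38.p6, 250 bases upstream on the gene's own strand, all 3 genes on the minus strand). Capitals mark matches to the core of the interferon-stimulated response element, GAAANNGAAA, on either strand.
Isg15, chr4:156200819-156201068: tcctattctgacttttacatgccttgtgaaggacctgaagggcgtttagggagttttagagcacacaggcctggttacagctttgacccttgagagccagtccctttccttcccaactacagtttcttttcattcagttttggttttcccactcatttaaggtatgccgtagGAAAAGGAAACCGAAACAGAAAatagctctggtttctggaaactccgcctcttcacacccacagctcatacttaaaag
Oas3, chr5:120777660-120777909: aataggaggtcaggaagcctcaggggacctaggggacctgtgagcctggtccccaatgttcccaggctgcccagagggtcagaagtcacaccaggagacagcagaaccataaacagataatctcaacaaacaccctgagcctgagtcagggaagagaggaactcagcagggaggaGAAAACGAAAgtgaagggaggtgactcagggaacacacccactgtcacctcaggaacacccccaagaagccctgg
Rsad2, chr12:26456453-26456702: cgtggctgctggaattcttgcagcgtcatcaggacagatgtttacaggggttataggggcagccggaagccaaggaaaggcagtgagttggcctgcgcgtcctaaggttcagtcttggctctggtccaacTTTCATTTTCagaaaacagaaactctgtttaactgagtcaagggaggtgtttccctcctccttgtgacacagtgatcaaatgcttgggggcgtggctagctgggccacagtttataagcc
The run of capitals in Isg15 is 3 overlapping matches, which begin 78, 72 and 66 bases before the start. Oas3 has 1 match at 75 bases, and Rsad2 has 1 at 120 bases, on the opposite strand.

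Isg15, a ubiquitin-like protein, had 22, 9, 38 and 26 in Ly6Clo and 53, 70, 119 and 66 in Ly6Chi cells (log2 fold change -1.75 ± 0.43, adjusted p = 0.013). Oas3, a sensor of double-stranded RNA, had 261, 352, 659 and 356 against 843, 1030, 2053 and 959 (log2 fold change -1.57 ± 0.31, adjusted p = 0.00351). Neither gene's groups overlapped, though Ly6Clo replicate 3 was the highest Ly6Clo library for both. Rsad2, an antiviral enzyme, had 54, 51, 92 and 117 against 51, 53, 133 and 116, and was not called (log2 fold change -0.12). In the window of 250 bases before to 50 after the start, the motif was found in 329 of 9881 promoters of genes tested (3.33%) and in 1131 of all 32851 promoters (3.44%). Counted per gene, with a match in any of its promoters, it was found for 18 of the 29 interferon-stimulated genes with a promoter entry (62.1%). The share was 6 of 10 members called lower (60.0%) and 12 of 19 not called (63.2%). Usp18, which restrains interferon receptor signalling, was 3.45-fold, and Oasl2 3.88-fold, higher in Ly6Chi cells. Ifi44l fell by 2.38 on the log2 scale, with 22, 12, 49 and 9 against 139, 63, 187 and 65. Ifitm3, the highest member that was not called, followed the library series rather than the subset, with 3694 and 4877 then 10103 and 7956 in Ly6Clo and 4718 and 4418 then 14561 and 13418 in Ly6Chi cells. Members of the Oas, Ifit and Ifi families share sequence, and how their shared reads were assigned bears on each single value.

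Of 27 genes of Toll-like receptor and MyD88 signalling tested, 1 was called higher in Ly6Clo cells, 3 lower and 23 not, with a median of -0.09, beside 9.01% of all genes called higher and 8.38% lower. Tlr7, the receptor of imiquimod, had 1736, 2029, 1949 and 2455 in Ly6Clo and 2083, 1949, 2204 and 2434 in Ly6Chi cells, overlapping ranges with a log2 fold change of -0.09 ± 0.12. The rise was in Irak3, an inhibitor of the pathway, with 4404, 5022, 2607 and 3111 against 1768, 1925, 1385 and 1708. Tlr5, the flagellin receptor, was 8.92-fold, Tlr2, for bacterial lipoproteins, 2.12-fold and Tlr9, for unmethylated DNA, 2.03-fold higher in Ly6Chi cells. Unc93b1, which carries the endosomal receptors to their compartment, was not called, with 5838 to 9731 in Ly6Clo and 9154 to 10152 in Ly6Chi cells.

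Of 23 chemokines and cytokines tested, 6 were called higher in Ly6Clo cells, 4 lower and 13 not, with a median of -0.17, where the shares over all genes were 9.01% and 8.38%. Il1b, the precursor of interleukin-1 beta, had 1884, 2474, 1917 and 2298 in Ly6Clo against 183, 330, 201 and 382 in Ly6Chi cells, a 7.82-fold difference (log2 fold change 3.02 ± 0.22). Pdgfb, a growth factor for pericytes and fibroblasts, was 9.87-fold and Tnf 2.24-fold higher in Ly6Clo cells. Tnfsf14 (LIGHT) was 2.55-fold higher in Ly6Chi cells. Il15 and Il18 were called lower with adjusted p of 0.0321 and 0.0283, and 2 members were called lower without Ly6Chi replicate 4. Of 8 Fc receptors tested, 4 were called higher, none lower and 4 not, with a median of 1.06, and 1 was called lower without Ly6Chi replicate 1 or 2. Fcgr4 had 8009, 8731, 5784 and 6509 against 510, 618, 746 and 698, and Fcrl5 1598, 1799, 1235 and 1352 against 2, 20, 20 and 24. Both lay far apart between subsets, as did Fcrl1 (9.91-fold). Fcer1g, the shared signalling chain, was higher in every Ly6Clo library (8928 to 12523 against 5790 to 8660) but had a log2 fold change of 0.51, below the limit.

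Of 34 cell cycle genes tested, 9 were called lower in Ly6Clo cells, 3 higher and 22 not, with a median of -0.19, where 8.38% of all genes were called lower and 9.01% higher. Mki67, the proliferation antigen, had 146, 209, 496 and 532 in Ly6Clo and 1260, 1609, 900 and 1366 in Ly6Chi cells, a 3.71-fold difference without overlap. Ube2c and Ccnb2, which act in mitosis, were 5.48-fold and 4.95-fold higher in Ly6Chi cells. The 3 members called higher in Ly6Clo cells were the cyclins Ccnd2 and Ccnd1 and the inhibitor Cdkn1a, the last at an adjusted p of 0.0393 and with overlapping groups. Of 16 BCL2 family genes tested, 6 were called higher, 1 lower and 9 not, with a median of 0.05. Bcl2, which blocks mitochondrial cell death, had 1186, 1142, 1269 and 1465 against 38, 90, 131 and 112, a 13.6-fold difference (log2 fold change 3.89 ± 0.31, adjusted p = 7.53e-06). Its relatives Bcl2a1a, Bcl2a1b and Bcl2a1d had log2 fold changes of 5.09, 5.69 and 4.12, but these copies are nearly identical and their single values are uncertain. With a pseudocount of 10 Bcl2a1a and Bcl2a1b had 3.76 and 3.61. Bad, which promotes cell death, was 1.58-fold higher in Ly6Chi cells, and it was no longer called without Ly6Clo replicate 4, while 2 members were called lower without Ly6Chi replicate 2. Mcl1, the highest member that was not called, had 11199 to 19547 in Ly6Clo and 11698 to 15109 in Ly6Chi cells.

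Most metabolic genes were not called, and the counts that follow stand beside 9.01% of all genes called higher and 8.38% lower. Of 29 genes of lipid uptake and cholesterol handling, 8 were called higher in Ly6Clo cells, 1 lower (2 without Ly6Chi replicate 2) and 20 not, with a median of 0.07. Fabp4, a fatty acid carrier, had 337, 364, 355 and 485 against 5, 5, 28 and 16, whereas the related Fabp5 had 69, 104, 83 and 94 against 144, 172, 180 and 141. The carriers thus had opposite orders in the subsets, each without overlap. Lpl, which hydrolyses circulating triglycerides, was 1.84-fold higher and Abca1, a cholesterol exporter, 2.27-fold higher in Ly6Clo cells. Of 42 lysosomal genes, 2 were called higher, 8 lower and 32 not, with a median of -0.09, and within the first library series 6 were called higher and 4 lower. Lgmn, an asparaginyl endopeptidase and one of those called higher, had 5975, 4976, 3393 and 3550 against 1746, 1526, 1783 and 1859. Npc2, a cholesterol carrier of the lysosome, was 2.70-fold higher in Ly6Chi cells. Of 24 glycolysis genes, 3 were called higher, 3 lower and 18 not, with a median of -0.09, and 5 were called lower without Ly6Clo replicate 1. The muscle-type enolase Eno3 was the largest rise, with 3199, 3322, 4332 and 4131 against 110, 140, 360 and 274. Slc16a3, a lactate exporter, was 2.57-fold, and Pfkfb3, a regulator of glycolytic flux, 2.29-fold higher in Ly6Clo cells. Ldhb had at most 8 in Ly6Clo cells and 34 to 60 in Ly6Chi cells.

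**Figure D3:**
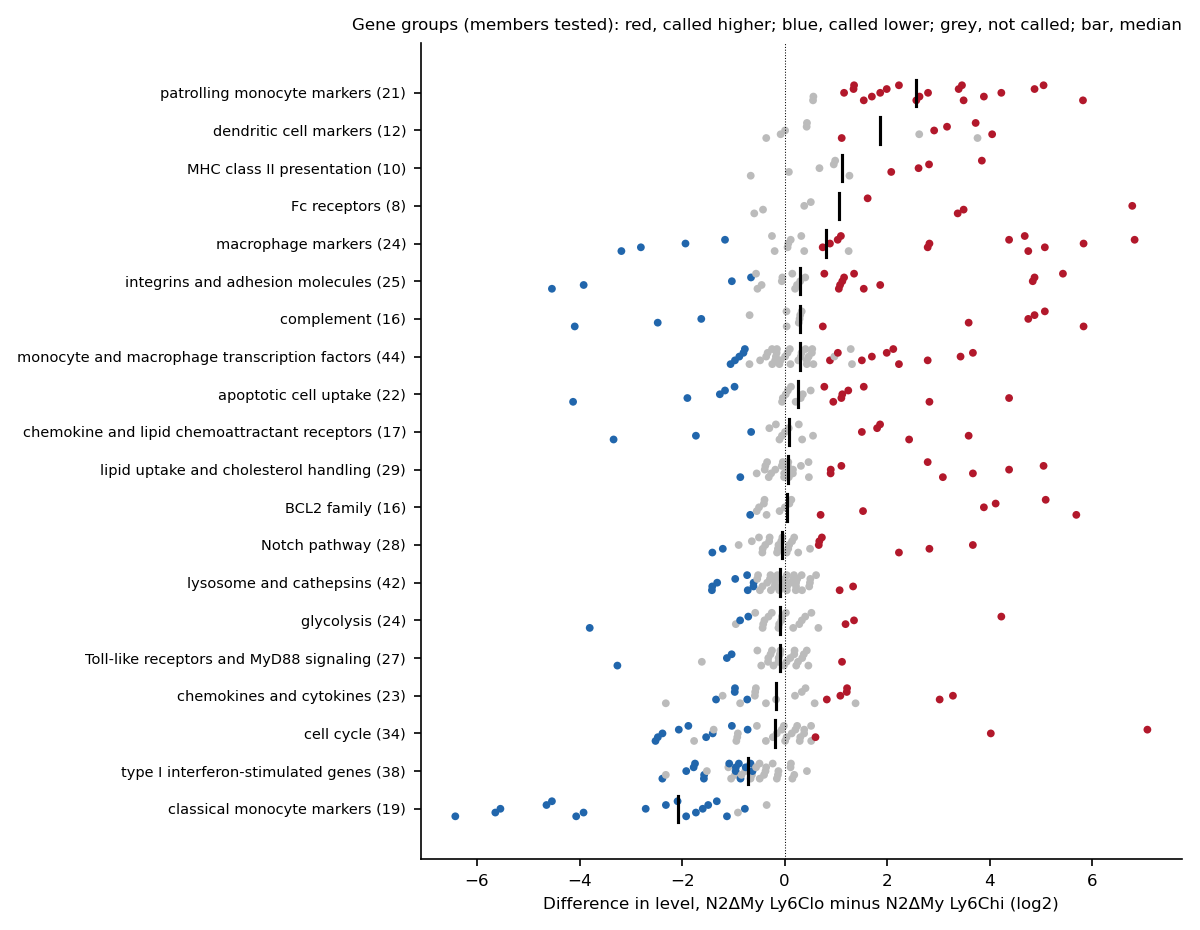
Log2 fold change (Ly6Clo minus Ly6Chi in N2ΔMy mice under IMQ, horizontal axis) of each tested member of 20 gene groups (rows, number tested in brackets); red points are called higher, blue lower and grey not called, and the black tick is the group's median. Patrolling monocyte markers (median 2.57) and classical monocyte markers (median -2.09) lie at the ends, and no interferon-stimulated gene is red.

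Antigen presentation genes were uneven among mutant Ly6Clo replicates. The MHC class II chain H2-Aa had 517, 642, 6134 and 3083 in Ly6Clo and 114, 196, 409 and 275 in Ly6Chi cells, so replicates 3 and 4 carried most of the rise although the groups did not overlap. Its log2 fold change was 2.82 ± 0.71 (adjusted p = 0.0138), 1.94 in the first library series and 3.69 in the second, and 2.17 without Ly6Clo replicate 3. H2-Eb1 and H2-Ab1 had log2 fold changes of 3.85 and 2.61. The calls of H2-Aa and H2-Ab1 were lost with the study's own test steps. Cd74, the invariant chain, had 3446, 3749, 18001 and 9453 against 2319, 2697, 3934 and 2685 and was not called (adjusted p = 0.0599), although it was called with the replicate block (adjusted p = 0.00276). Ciita, the master regulator of the class II genes, was not called. Of 10 genes of the group tested, 4 were called higher, none lower and 6 not, with a median of 1.12, beside 9.01% of all genes called higher and 8.38% lower. Within the second library series 7 were called higher. In wt Ly6Clo cells replicate 3 was also the highest, but replicate 4 the lowest, with 213, 273, 736 and 67 for H2-Aa and 128, 247, 627 and 42 for H2-Eb1. The sort gates excluded surface MHC-II in both subsets.

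Of 17 dendritic cell markers listed, 12 passed the low value filter, of which 5 were called higher, none lower and 7 not. Over all genes 9.01% were called higher and 8.38% lower. Without Ly6Clo replicate 3, 3 of the markers were called. Zbtb46, a factor of conventional dendritic cells, had 28, 53, 460 and 165 in Ly6Clo against 9, 6, 7 and 6 in Ly6Chi cells. Siglech, a lectin of plasmacytoid dendritic cells, had 9, 6, 64 and 39 against 0, 3, 6 and 0, and its call was lost without Ly6Clo replicate 3 or 4 and without Ly6Chi replicate 1, 2 or 4. Ccnd1 had 28, 65, 375 and 132 against 1, 9, 22 and 2. In each of these genes mutant Ly6Clo replicate 3 was the highest library and replicate 4 the next, the order seen for H2-Aa and Cd74. Replicate 3 was also the highest wt Ly6Clo library for Zbtb46 (114), Siglech (46) and Ccnd1 (94). Cd83, an activation marker of dendritic cells, was even among mutant Ly6Clo replicates, with 72, 71, 54 and 64 against 5, 1, 6 and 2 in mutant Ly6Chi cells.

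**Figure D4:**
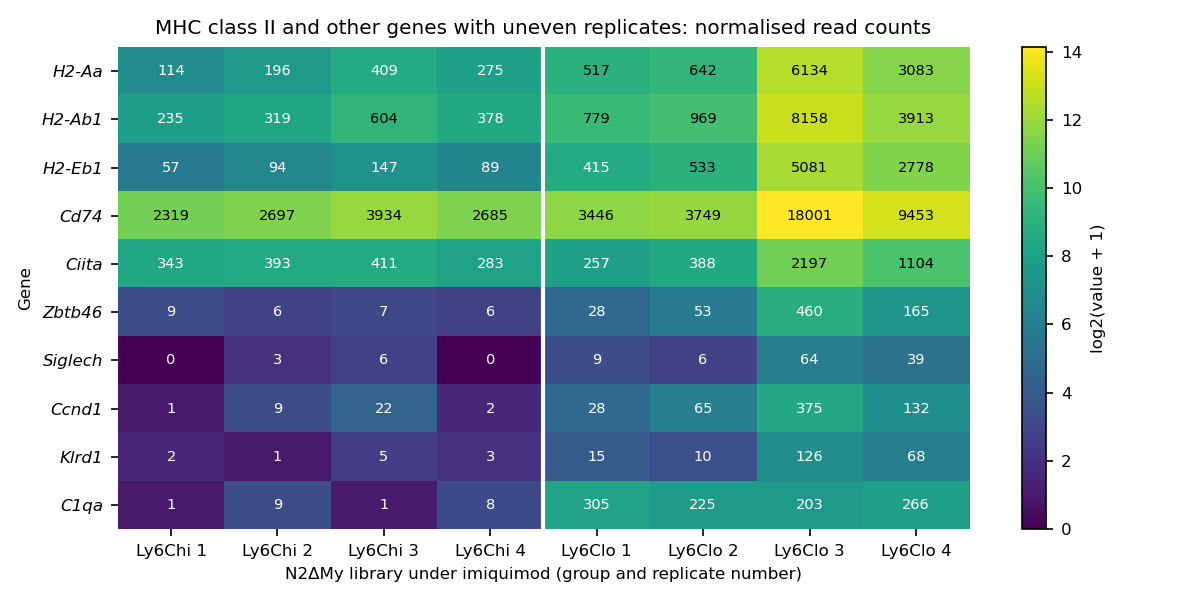
Heat map of log2(value + 1) (colour scale) for 10 genes (rows) in the 8 mutant libraries (columns, Ly6Chi 1 to 4 then Ly6Clo 1 to 4), with the normalised read count written in each cell. H2-Aa, Cd74, Zbtb46 and Ccnd1 are highest in Ly6Clo replicate 3 (6134, 18001, 460 and 375), whereas C1qa, in the bottom row, is even across Ly6Clo replicates (203 to 305).

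Markers of other blood cells moved with some of these values. Of 15 neutrophil markers 7 passed the low value filter, of which 5 were called lower in Ly6Clo cells, 1 (Mmp9) higher and 1 (Ltf) not. The shares over all genes were 8.38% lower and 9.01% higher. The summed neutrophil list was 7454 to 11870 in Ly6Chi and 2125 to 3307 in Ly6Clo libraries. S100a8, a subunit of calprotectin, had 402, 613, 1819 and 3443 in Ly6Chi against 34, 33, 93 and 84 in Ly6Clo cells. Lcn2 was 10.2-fold higher in Ly6Chi cells, and Prtn3 had 166, 206, 224 and 164 there against 9, 12, 13 and 4 in Ly6Clo cells. Ly6g, the defining surface antigen of neutrophils, is listed at 0 in all 8 libraries, Cxcr2 had at most 18 and Retnlg at most 8. Retnlg, Ngp and Ltf had the opposite order, with 4 to 8, 12 to 24 and 7 to 35 in Ly6Clo against 0 to 1, 0 to 7 and 2 to 8 in Ly6Chi libraries. The early granule genes Mpo, Elane and Ctsg had 8 to 36 in Ly6Chi and at most 6 in Ly6Clo libraries. The part of granulocyte or progenitor RNA in the falls of Mmp8, Cd177 and Fcnb was not tested. Klrd1, 1 of 8 NK cell markers and the one that passed the filter, had 15, 10, 126 and 68 in Ly6Clo against 2, 1, 5 and 3 in Ly6Chi cells, highest in the Ly6Clo replicates that were highest for the MHC class II genes. Ncr1 is listed at 0 in all 8 libraries and Nkg7 had at most 2. Vwf, known from endothelium and platelets, was 7.70-fold higher in Ly6Clo cells, while the endothelial markers Emcn and Cldn5 are listed at 0 throughout and Cdh5 had at most 12. None of the tested B cell (2), platelet (3) or erythroid (5) markers was called. No T cell marker passed the low value filter. Summed erythroid markers reached 1565 and 1573 in replicate 4 of Ly6Chi and of Ly6Clo cells and at most 25 in the other 6 libraries. The part of these cells in any other result was not tested.

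In wt mice the same comparison of subsets gave 1331 genes called higher in Ly6Clo cells (11.9%) and 1429 lower (12.7%). Of the genes called in the mutant, 1619 were also called in wt, 1604 of them in the same direction. The difference between the genotypes' subset differences was tested directly. It was called for 109 genes as higher in the mutant (0.971% of genes tested) and for 7 as lower (0.0623%). With the replicate number as a block these became 241 and 30. The first library series alone gave 134 genes and the second 18. Without wt Ly6Chi replicate 2 the count fell to 75. Of the 109 genes, 98 were called lower in wt Ly6Clo cells, and in the mutant 37 were called lower and 24 higher, with median log2 fold changes of -1.92 in wt and -0.31 in the mutant.

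Of 19 classical monocyte markers the difference was called higher in the mutant for 4 (Ccr2, Vcan, F13a1 and Fn1), lower for 1 (Mgst1) and for neither in 14, beside 0.971% of all genes called higher and 0.0623% lower. Ccr2 had 482, 641, 991 and 241 in wt Ly6Clo and 12476 to 13680 in wt Ly6Chi cells, and its difference between genotypes was 2.94 ± 0.39 on the log2 scale (adjusted p = 0.000643). Vcan differed by 3.36 ± 0.40, F13a1 by 3.29 ± 0.56 and Fn1 by 2.97 ± 0.32. In these 4 genes every mutant Ly6Clo library exceeded every wt Ly6Clo library. Gas7, a protein of membrane and actin remodelling, had 2676, 2306, 2364 and 1957 in mutant Ly6Clo against 50, 49, 145 and 42 in wt Ly6Clo cells, with a difference of 4.84 ± 0.38 (adjusted p = 2.91e-06). Siglec1, a sialic acid receptor of macrophages, had 112, 144, 163 and 114 in mutant Ly6Clo cells and 3, 29, 0 and 0 in wt Ly6Clo cells, a difference of 5.51 ± 1.12 that rests on the pseudocount and was 4.25 in the first library series and 6.77 in the second. Mutant Ly6Chi cells had 85, 137, 351 and 126, so the mutant subsets overlapped for Siglec1. Irf4 had a log2 fold change of 0.01 in the mutant and -1.77 in wt cells.

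For 15 genes called in both genotypes the subsets were in opposite order, and the difference was called for 14 of them. Lyz1, a lysozyme next to and closely similar to Lyz2, Lpl, Maf, a macrophage transcription factor, and Cd80, a costimulatory ligand, had differences of 2.71, 2.44, 1.70 and 1.68. Lyz1 was also higher in mutant than in wt Ly6Chi cells, with means of 1100 against 126 under IMQ and 1880 against 241 in mice given sham cream. Lyz2, from whose locus the Cre was expressed, had means of 101089 in mutant and 142842 in wt Ly6Chi cells under IMQ. The part of the altered locus in the Lyz1 values was not tested. Lyz1 and Cd80 were called narrowly in the mutant (adjusted p = 0.0301 and 0.0415), and both calls were lost without Ly6Clo replicate 1 or 4 or Ly6Chi replicate 2, among others. Mertk had 7, 18, 3 and 26 in wt Ly6Clo and 14, 24, 14 and 27 in wt Ly6Chi cells, and differed by 3.64 ± 0.67 (adjusted p = 0.0103). C1qb and C1qc differed by 3.66 and 3.04. C1qa differed by 4.89 ± 1.20 without a call (adjusted p = 0.0706), and with the replicate block its adjusted p was 0.00843. The few genes with the lower difference in the mutant included Itgb3 (-1.20 ± 0.22), Syne1, a protein of the nuclear envelope (-1.10 ± 0.21), and Tnip1, a restrainer of NF-κB signalling (-0.64 ± 0.15). Each was higher in Ly6Clo cells of both genotypes, with Syne1 at 2337, 2061, 1756 and 1464 in mutant and 5220 to 6410 in wt Ly6Clo cells.

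**Figure D5:**
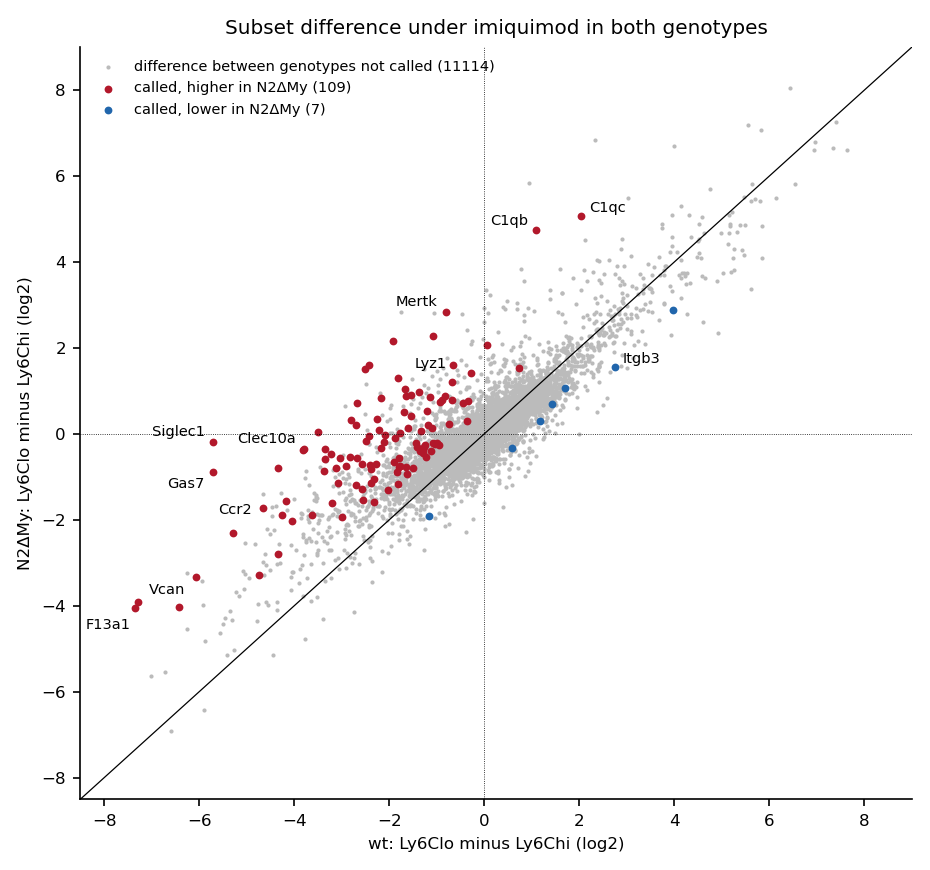
Log2 fold change between subsets (Ly6Clo minus Ly6Chi) in N2ΔMy (vertical axis) against wt mice (horizontal axis), both under IMQ, for the 11230 genes tested; red points mark genes whose difference between genotypes was called higher in the mutant (109), blue points lower (7) and grey points the rest. Siglec1 (difference 5.51) and Gas7 (4.84) lie well above the diagonal.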

How the data were processed

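RNA of sorted blood monocytes was sequenced by the authors from stranded total RNA libraries. Per the labels, reads were trimmed with Trim Galore 0.4.4 and aligned with STAR 2.5.3a to GRCm38.p6, and the values were normalised with DESeq2. The deposited table holds 1 score per gene and library, a normalised read count that the authors rounded to a whole number, so no count model was run here. Its 5 columns of the authors' own comparisons (fold changes and p-values) were not used, and 14 gene symbols that a spreadsheet had turned into dates were restored by gene ID. Of the genes listed, 25137 were at 0 in all 24 libraries and 11230 passed the low value filter of 50.

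The 8 mutant libraries were fitted with limma 3.58.1 (R 4.3.3) with a trend on log2(value + 1), two-sided, with Benjamini-Hochberg adjustment over all genes tested. The difference between genotypes was the interaction in a fit of 16 libraries. The series calls the 4 libraries of a group biological replicates; whether a library pooled mice is not given in the sources used here. Same-numbered Ly6Clo and Ly6Chi libraries deviated together (correlation 0.34 to 0.48, and 0.21 to 0.26 when centred within each library series), a pairing read from the data. The fit reported has no replicate block, and the block was an alternative. Read numbers were inferred from the spacing of the whole-number values, and their number limits the precision of low genes.

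The genes and lists were chosen with earlier results of these data known. Named were the 12 largest rises and 12 largest falls among called genes without overlap, with the same direction in both series and a mean of at least 100 in the higher group, leaving out clone names. In each list, the 3 largest called members in each direction and the highest member not called were named. So were the genes of the sort and the deletion, and genes called in opposite directions. Of the called interactions, the 8 largest that were higher in the mutant and all 7 that were lower were named. These also had a mean of at least 100 in the highest group and no clone name. Others named, such as Nr4a1, Vcan, Fn1, Bcl2, Tlr7, Mki67, Isg15, Oas3 and Rsad2, are list members chosen after their values were seen. Some genes that these rules name are not reported here. Alternatives were TMM scaling, other filters and pseudocounts, a replicate block, library series as a covariate, no trend, each series alone, all 24 libraries in 1 fit, the test steps of the study without its variance filter and leaving out each library. Scripts were tested on simulated data. Promoters came from RefSeq on GRCm38.p6.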

Additional observations from a re-analysis of the deposited data

Results flagged for a closer look

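Within a group of 4 libraries, 1 library stood apart from the other 3 for 11 of 298 gene and group pairs examined, by the ratio of its gap to the whole range (Dixon's test at its 95% level), a flag that chance gives in about 1 in 20 groups. In mutant Ly6Chi cells the ratios were 1.0 for Cd5l and for Itga9, 0.918 for Fcrl5, 0.898 for Nrarp and 0.932 for Syne1. For Cd5l this was replicate 3 with 4 reads beside 3 libraries at 0, and for Fcrl5 replicate 1 with 2 beside 20 to 24. In mutant Ly6Clo cells they were 1.0 for Tfec and for Fcnb, 0.892 for Ly6c2, 0.838 for Pparg, 0.867 for Steap3 and 0.844 for Tnip1. Ly6c2, the gene of the sort antigen, had 382 in replicate 3 and 46 to 58 in the others.

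The difference between subsets itself differed between genotypes, by the interaction test in limma, for 36 named genes, of which 34 are given here on the log2 scale as mutant minus wt. Among those higher in the mutant, receptors and lectins were Siglec1 at 5.51 (with 2 wt Ly6Clo libraries at 0, so that the size depends on the pseudocount), Mertk at 3.64, Clec10a at 3.43, Ccr2 at 2.94, Ccr1 at 2.74, Clec5a at 2.40, Msr1 at 1.74, Cd80 at 1.68 and Clec7a at 1.06. Secreted or lipid-handling proteins were C1qb at 3.66, F13a1 at 3.29, C1qc at 3.04, Lyz1 at 2.71 and Lpl at 2.44. Transcription factors were Irf4 at 1.78, Maf at 1.70 and Zfp395 at 2.34. Membrane, cytoskeletal and enzyme genes were Gas7 at 4.84, Calml4 at 4.07, Cbr2 at 4.01, Cav2 at 3.56, Steap3 at 3.45, Anxa3 at 2.52, Ank2 at 2.00, Sept8 at 1.88, Rai14 at 1.68 and Dennd2a at 1.47. Wt Ly6Clo values were 1, 13, 0 and 3 for Cbr2, 2 to 11 for Calml4 and 1 to 11 for Cav2, so these sizes also depend on the pseudocount. Cbr2 differed by 3.07 in the first library series and by 4.96 in the second. Those lower in the mutant were Itgb3 at -1.20, Syne1 at -1.10, Cyp39a1 at -0.90, Gne at -0.87, Mgst1 at -0.76, Grina at -0.72 and Tnip1 at -0.64. Mgst1, a microsomal glutathione transferase, fell more steeply in mutant Ly6Clo cells (log2 fold change -1.92) than in wt Ly6Clo cells (-1.16).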

How the results depend on the processing

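The count of 1953 genes called between the mutant subsets stayed within 1.5 times under every alternative, from 1571 with the test steps of the study (values floored at 1.1, p of 0.01) but without its variance filter to 2481 in the second library series alone, and leaving out 1 library gave 1655 to 1938. The replicate block gave 2302 genes (1152 higher, 1150 lower), and it moved no count of calls by over 1.5 times except the interaction, the interferon-stimulated genes (14 to 22 lower), the Notch pathway (2 to 4 lower) and the MHC class II group (none to 1 lower). The test of the difference between genotypes depended more on the fit. Its 116 genes became 271 with the replicate block, 210 with the library series as covariate and 18 in the second series alone, and leaving out 1 library gave 75 to 173, with 75 without wt Ly6Chi replicate 2. The cause was not tested. Of 149 named genes, 123 were called, 97 of these under each of the 20 alternatives that gave a value, and none reversed direction. The 26 that lost the call under at least 1 alternative included Cd80, Cdkn1a, Cebpe, Id1, Lyz1, Siglech, Ptafr, Il15, Il18 and Cenpf, and, with the study's test steps alone, H2-Aa, H2-Ab1, Ccnd1 and Ctse. With a pseudocount of 10 the fold change of 30 of the 149 moved by over 1.5 times, each to a smaller size, among them C1ra, Itgad, Nrarp, Cd5l and Bcl2a1b, which are near 0 in 1 subset.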

Other observations

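Genes outside the lists also separated the mutant subsets, and those named here were chosen after their values were seen. Pdcd1lg2 (PD-L2), a checkpoint ligand, had normalised read counts of 212, 164, 101 and 142 in Ly6Clo and 1, 1, 4 and 5 in Ly6Chi cells (log2 fold change 5.51 ± 0.49, limma's adjusted p = 1.43e-05). Its groups lay far apart, but the size of the fold change depends on the pseudocount. Ets1, a transcription factor known from lymphocytes and endothelium, had 378, 255, 91 and 253 against 1, 5, 3 and 11. Ikzf3, a zinc finger factor of lymphocytes, had 348, 332, 665 and 897 against 5, 12, 18 and 13, again without overlap. Tgfbr3, a co-receptor for transforming growth factor beta, was 18.6-fold higher in Ly6Clo cells, and Ltb, a membrane lymphotoxin, 12.9-fold higher. Nrg1, a growth factor for ErbB receptors, was 7.50-fold higher in Ly6Chi cells, with 121, 215, 201 and 243 against 21, 17, 41 and 25.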
